A study of Mus musculus with 3 samples.

Results

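The Notch pathway genes described here are 10 mouse genes, namely the receptor genes Notch1 and Notch3, the ligand genes Dll1, Dll4, Jag1 and Jag2, the transcription factor gene Rbpj and the target genes Hes1, Hes5 and Hey1. They were examined in lists of genomic regions carrying ubiquitinated histone H2A (H2AK119ub), mapped by chromatin immunoprecipitation and sequencing in tongue epithelium. A region was taken when the authors' annotation named 1 of the 10 genes for it, in any location class, or when it lay over the gene or within 50 kb of either end. This gave 20 of 7838 regions in replicate 1 and 24 of 8093 regions in replicate 2, around 10 of 21631 protein-coding genes. The choice of genes used no measured value, but it was made with earlier results of these lists known.

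Both H2AK119ub libraries came from control mice at postnatal day 0, and no strain or allele is named in the sources used here. Tongues were freed of the circumvallate papillae, cells bearing the epithelial surface protein EpCAM were sorted, and libraries were built from 4 ng of DNA. The input library was not analysed here. There was 1 group of 2 biological replicates and no mutant group, so the values describe where the mark was called and how far the replicates coincided. In sorted cells taken in bulk, a mark on some of the cells and a weak mark on all of them cannot be told apart.

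H2AK119ub is placed by the RING1 ubiquitin ligases of Polycomb repressive complex 1 and is found mostly at silent or weakly transcribed genes of developmental control. In Notch signalling, a ligand of the Delta-like or Jagged type on one cell binds a Notch receptor on its neighbour. The receptor is cut, and its intracellular part joins RBPJ on DNA to switch on genes such as those of the Hes and Hey repressors. In stratified epithelia the pathway is known for driving cells that leave the basal layer into differentiation.

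Of the 10 genes, 4 had a promoter region in both replicates (Dll1, Dll4, Hes1 and Hes5), against 8.82% of all protein-coding genes. Of the other 6, 3 had a promoter region in a single replicate: Jag1 and Jag2 in replicate 1 and Notch1 in replicate 2. Notch3 had a gene body region in both replicates, Rbpj had distal regions in both, and Hey1 was named by no region. Replicate 1 alone named 6 of the 10 genes for a promoter region, against 12.8% of protein-coding genes, and replicate 2 alone named 5, against 12.4%. Counting names in any class, 6 of the 10 were named in both replicates, against 15.3% of protein-coding genes, with 8 named in replicate 1 (against 21.0%) and 7 in replicate 2 (against 20.8%). The promoter, gene body, distal and intergenic classes are the authors' own.

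The class and the position did not always select the same genes. A region lay over the gene itself in both replicates for 4 of the 10 (Notch3, Dll1, Dll4 and Hes5), against 13.3% of protein-coding genes. Replicate 1 alone had 6 such genes and replicate 2 alone had 5, against 18.1% of protein-coding genes in each. RefSeq start sites of the reference were held for 8 of the 10, all but Hes1 and Hey1. For 3 of these 8 (Dll1, Dll4 and Hes5) a start site lay inside a region in both replicates, against 5.57% of the 17274 protein-coding genes with a start site. Each replicate alone had 4 of the 8, against 8.41% in replicate 1 and 8.06% in replicate 2. A region lay within 50 kb of the gene in both replicates for 7 of the 10, against 36.7% of protein-coding genes. In replicate 1 alone this held for 9 of the 10, against 43.8%, and in replicate 2 alone for 8, against 43.5%.

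**Figure D1:**
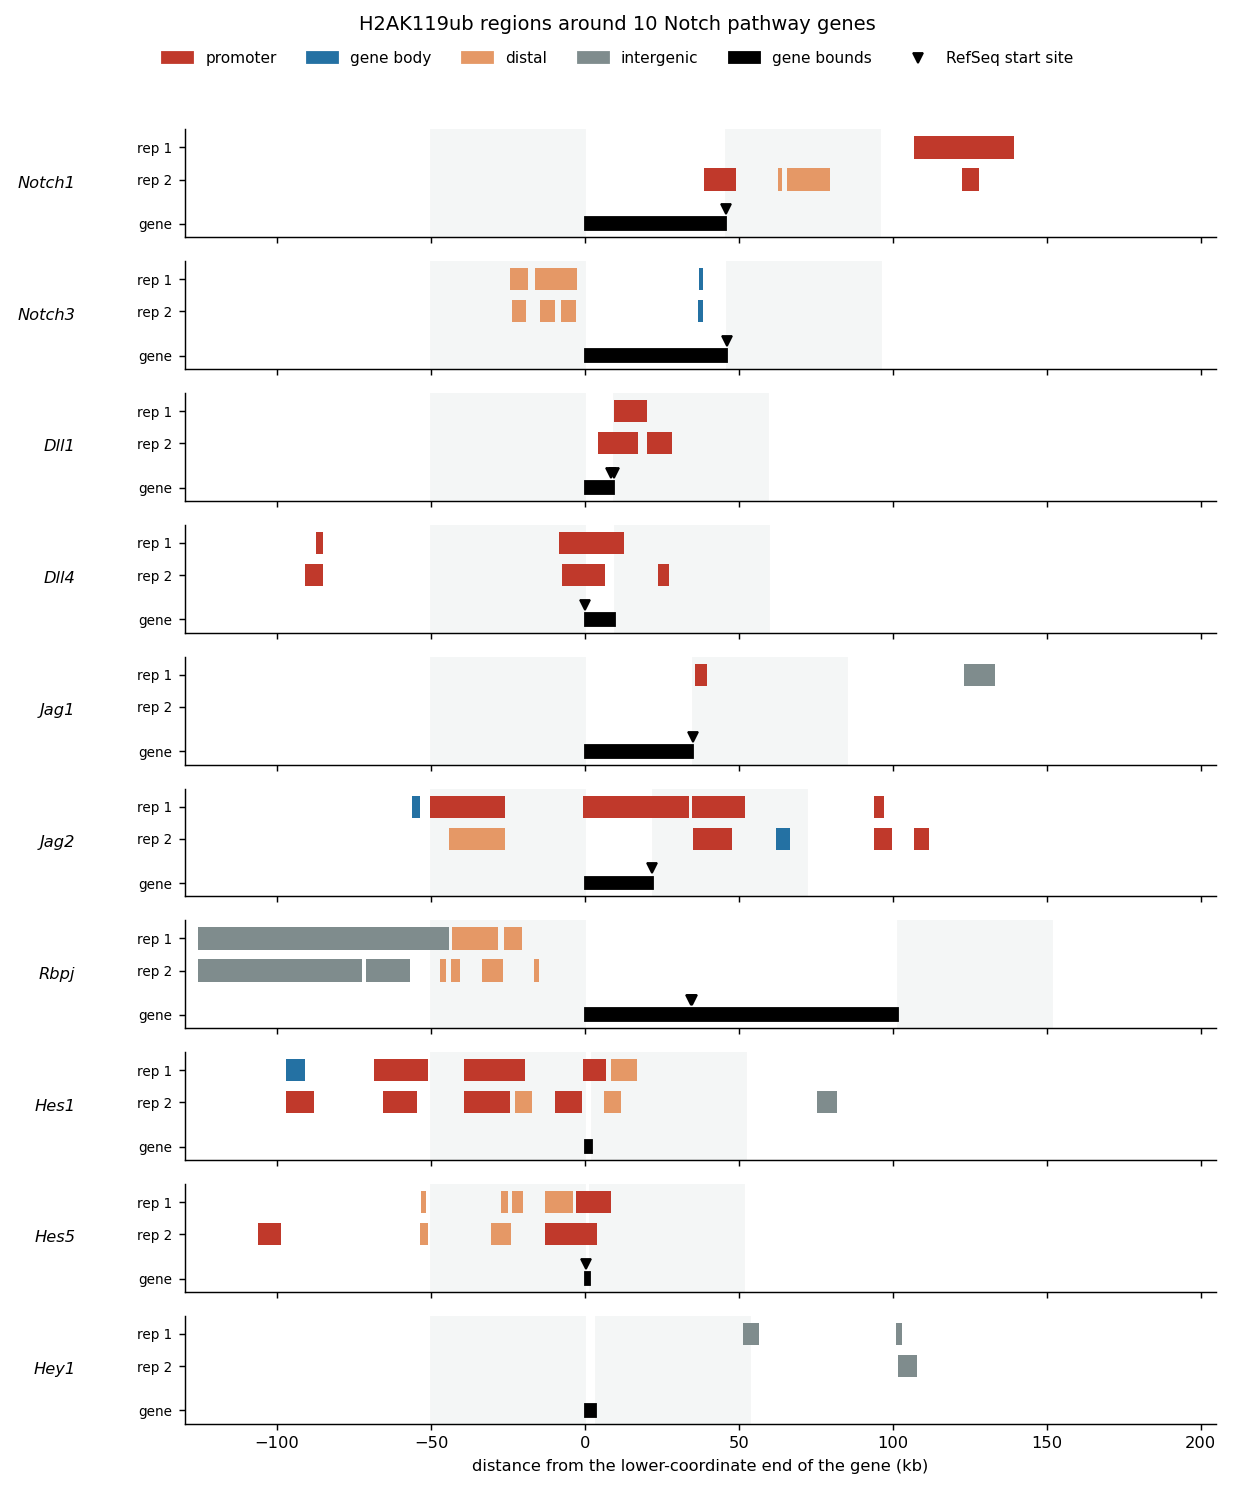
Called H2AK119ub regions within 100 kb of each gene, 1 row per replicate, coloured by the authors' location class. The horizontal axis is the distance in kb from the lower-coordinate end of the gene, black bars are gene bounds, triangles are RefSeq start sites and pale grey marks the 50 kb on either side. Regions lie over Dll1 (by 4 bp in replicate 1), Dll4, Hes5 and Notch3 in both replicates. Jag2 is covered in replicate 1 only, and Rbpj has its regions on one side, outside the gene.

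Start-site sequences are shown for the highest and lowest CpG counts among windows wholly inside a region in both replicates, and likewise among windows outside every region, because CpG-rich promoters are the usual sites of Polycomb marks in mammals. Each runs from 250 bases before to 50 bases after a RefSeq start, on the strand of the gene, in GRCm38.p6, which is the same assembly as the mm10 of the lists. Capitals mark the letters TGGGAA, the core of the sequence that RBPJ binds, on either strand. The first pair lay wholly inside a region in both replicates, and the second pair had no base in a region in either.
Hes5, chr4:154960673-154960972, plus strand: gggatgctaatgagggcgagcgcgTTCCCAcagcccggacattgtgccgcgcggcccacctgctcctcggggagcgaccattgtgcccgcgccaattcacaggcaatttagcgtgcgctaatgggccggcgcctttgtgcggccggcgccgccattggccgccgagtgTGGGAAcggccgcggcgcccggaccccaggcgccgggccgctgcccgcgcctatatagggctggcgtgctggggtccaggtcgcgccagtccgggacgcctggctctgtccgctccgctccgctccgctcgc
Dll4, chr2:119325534-119325833, plus strand: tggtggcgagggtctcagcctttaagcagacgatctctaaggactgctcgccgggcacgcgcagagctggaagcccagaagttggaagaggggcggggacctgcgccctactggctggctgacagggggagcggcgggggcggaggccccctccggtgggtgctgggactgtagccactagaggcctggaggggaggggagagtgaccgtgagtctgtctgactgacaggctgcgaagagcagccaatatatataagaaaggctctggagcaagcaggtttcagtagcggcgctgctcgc
Rbpj, chr5:53590236-53590535, plus strand: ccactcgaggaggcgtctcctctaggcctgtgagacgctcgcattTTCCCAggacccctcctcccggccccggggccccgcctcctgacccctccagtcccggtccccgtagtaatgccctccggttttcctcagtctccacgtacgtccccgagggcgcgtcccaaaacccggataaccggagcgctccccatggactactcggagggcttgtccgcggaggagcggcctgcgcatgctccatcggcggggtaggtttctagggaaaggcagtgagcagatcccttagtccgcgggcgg
Jag1, chr2:137116471-137116770, minus strand: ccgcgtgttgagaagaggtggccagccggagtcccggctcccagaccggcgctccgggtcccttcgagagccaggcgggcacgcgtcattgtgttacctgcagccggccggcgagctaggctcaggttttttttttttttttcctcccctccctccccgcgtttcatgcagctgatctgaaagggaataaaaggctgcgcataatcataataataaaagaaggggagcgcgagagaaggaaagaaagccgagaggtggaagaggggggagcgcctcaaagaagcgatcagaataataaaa

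CpG content overlapped between windows with and without a region. The 8 genes had 10 windows in the reference, since Dll1 and Rbpj each had a pair. Among windows whose start lay in a region in both replicates, Hes5 held 41 CpG dinucleotides, Dll4 held 17 and the upstream window of Dll1 held 15. The median was 19 over the 1138 such windows of all protein-coding genes. The other window of Dll1 and that of Notch1, both in a region in replicate 2 alone, held 24 and 23. Among windows whose start lay in no region, the Rbpj windows held 28 and 26, Notch3 held 25 and Jag1 held 22, and all 4 stood above the median of 12 over 18812 such windows. Jag2, with 63 CpG in a window that was 86.0% G and C, was at the 99.97th percentile of all 21045 windows, and its start lay in a region in replicate 1 alone. The motif TGGGAA, counted on both strands, was found in 3 of the 10 windows, that of Hes5 (2 matches) and both of Rbpj (2 and 1 matches in windows that overlap), while 24.2% of all windows held it.

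**Figure D2:**
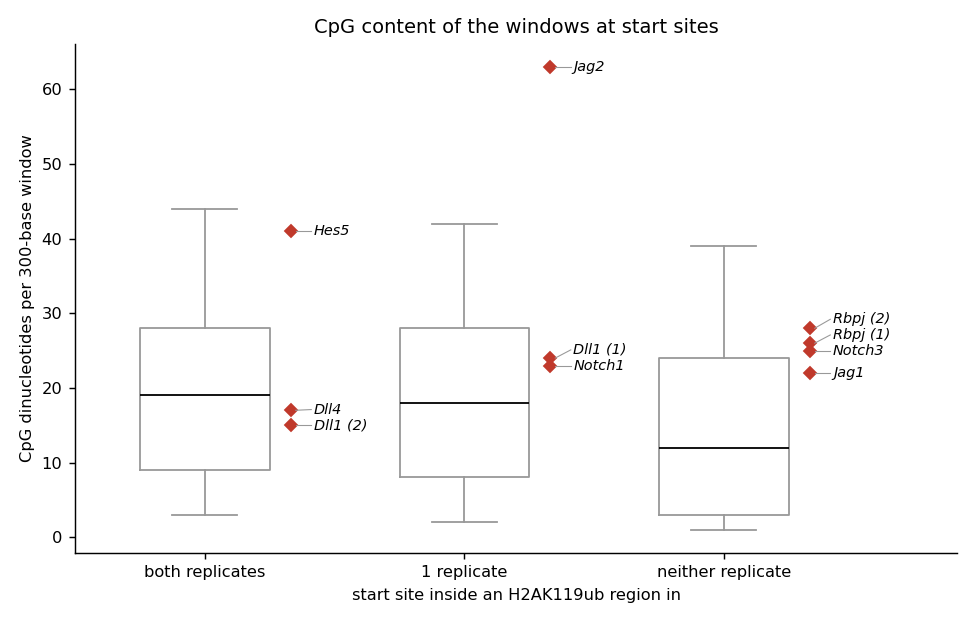
CpG dinucleotides in each 300-base window at a start site, grouped by whether that start lay inside a region in both, 1 or neither replicate. Boxes show the median and quartiles over all protein-coding windows with whiskers from the 5th to the 95th percentile, and diamonds are windows of the Notch genes (numbers in brackets tell the windows of one gene apart). The Notch windows in the group without a region all lie above the group's median of 12, and Jag2 at 63 lies above every whisker.

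Among the ligand genes, Dll4 and Dll1 were marked in both replicates and the Jagged genes in 1. Dll4 encodes a Delta-like ligand known above all from blood vessels. Its gene on chromosome 2 (119325784 to 119335666) lay under a region of 21.1 kb in replicate 1 (119317364 to 119338487) and of 14.1 kb in replicate 2 (119318335 to 119332428). The replicate 2 region was contained in that of replicate 1. The lower edges stood 0.971 kb apart and the upper edges 6.06 kb apart, so the replicates coincided on the upstream side and parted in the gene body. The covered share of the gene was 100% in replicate 1 and 67.2% in replicate 2. Both lists also named the noncoding gene Gm14207, which lies in these regions in full and overlaps the start of Dll4.

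Dll1 encodes a Delta-like ligand used in lateral inhibition and in the segmentation of the embryo. Its gene on chromosome 17 (15367354 to 15376932) is read from the minus strand and has start sites at 15376932 and 15375823 in the reference. The replicate 1 region (15376929 to 15387465, 10.5 kb) lay upstream and overlapped the gene by 4 bp. The replicate 2 region (15371527 to 15384737, 13.2 kb) took in both start sites and 56.4% of the gene. The stretch in common was 7.81 kb. Replicate 2 alone had a further region of 8.13 kb beside Fam120b, the next gene upstream. Thus Dll1 was named in both lists, but apart from those 4 bp the gene itself was under a region in replicate 2 only.

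Jag1 encodes a Jagged ligand expressed in many epithelia. It was named for 1 region in replicate 1 (chromosome 2, 137117253 to 137121023, 3.77 kb), which began 0.733 kb upstream of the gene (137081451 to 137116520) and did not touch it. That width was at the 39.4th percentile of the list. In replicate 2 no region lay within 50 kb, and the nearest was 460 kb away.

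Jag2 encodes the Jagged ligand without which the tongue fuses to the palatal shelves in mouse embryos. With 50 kb on either side, it had the largest spread between the replicates. In replicate 1 a promoter region of 34.3 kb (chromosome 12, 112907116 to 112941450) covered the whole gene (112907803 to 112929812) and 91.2% of its neighbour Nudt14. In replicate 2 no region lay over Jag2 and the nearest was 13.0 kb away. The regions that flank Jag2 were present in both lists: on one side 24.4 kb in replicate 1 and 18.1 kb in replicate 2 by Gpr132, on the other 17.3 and 12.6 kb named for Nudt14. Of the 129 replicate 1 regions at least as wide as that over Jag2, 6 (4.65%) had no replicate 2 region on them, this one included. Jag2 was singled out for that count after its values were seen.

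Between the receptor genes, Notch3 had the same small region in both replicates and Notch1 had regions in 1 replicate. Notch1 encodes the main Notch receptor of keratinocytes. In replicate 2 a promoter region of 10.4 kb (chromosome 2, 26496676 to 26507063) covered the start site and 15.6% of the gene (26457902 to 26503822), and distal regions of 1.28 and 14.0 kb followed upstream. In replicate 1 no region lay nearer than 61.1 kb, where a promoter region of 32.2 kb was named for the vascular gene Egfl7. Replicate 2 also had a region of 5.51 kb named for Egfl7.

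Notch3 encodes a receptor known chiefly from vascular smooth muscle. Its gene body region on chromosome 17 was 1.23 kb wide in replicate 1 (32157900 to 32159134) and 1.74 kb wide in replicate 2 (32157447 to 32159187), and the replicate 1 region lay wholly inside the other. These were narrow for their lists, at the 5.0th and 13.7th percentiles of width. They covered 2.68% and 3.78% of the gene and lay 7.76 and 7.70 kb from its start site. Beyond the other end of Notch3, distal regions of 5.94 and 13.4 kb in replicate 1 and of 4.61, 4.90 and 4.67 kb in replicate 2 covered nearly the same stretch. All of these were named for Pdxk-ps by the authors. Within 50 kb of Notch3 the replicates had 73.1% of their covered bases in common, the highest share among the 10 genes.

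Rbpj encodes the DNA-binding protein through which all Notch receptors act. Its gene on chromosome 5 (53555779 to 53657445) had no region over it in either replicate. The RefSeq starts held in the reference, at 53590346 and 53590486 on the plus strand, lie well inside these bounds. They lay 55.1 and 55.2 kb from the nearest region in replicate 1 and 49.5 and 49.7 kb in replicate 2. No start was held for the lower-coordinate end of the gene, which stood nearer to the regions. On the lower-coordinate side of the gene stood a chain of regions. In replicate 1 it comprised an intergenic region of 81.4 kb (53430130 to 53511566, 99.9th percentile of width) and distal regions of 14.9 and 5.72 kb named for Rbpj, with gaps of 1.00 and 2.08 kb between them. In replicate 2 it comprised intergenic regions of 53.5 and 14.2 kb and distal regions of 2.13, 2.86, 6.94 and 1.68 kb named for Rbpj. These intergenic regions lay 72.3 and 56.7 kb from the gene, so they are not among the 24 regions taken in replicate 2. Gaps between the distal regions of replicate 2 were wider, at 1.62, 7.08 and 9.91 kb. The region nearest to Rbpj in each list, of 5.72 kb in replicate 1 and 1.68 kb in replicate 2, overlapped no region of the other list. The outer end of the chain differed little, at 53430130 in replicate 1 and 53429973 in replicate 2, whereas the end facing Rbpj stopped 20.5 kb short of the gene in replicate 1 and 15.0 kb short in replicate 2.

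Among the target genes, Hes5 was covered in full in both replicates, Hes1 in 1 replicate and Hey1 in none. Hes5 encodes a basic helix-loop-helix repressor typical of neural progenitors. Its gene on chromosome 4 (154960626 to 154962372) lay inside a promoter region of 11.2 kb in replicate 1 (154957811 to 154969012) and of 16.9 kb in replicate 2 (154947721 to 154964579), both named for Pank4 and Hes5. In replicate 1 a separate distal region of 9.08 kb (154947696 to 154956778) stood 1.03 kb away and covered the stretch that belonged to the promoter region in replicate 2. The lower ends of the marked stretch were therefore at 154947696 in replicate 1 and 154947721 in replicate 2. On the side of Pank4, the replicate 1 region reached over 29.1% of that gene and the replicate 2 region over 2.72%.

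Hes1 encodes a repressor that keeps progenitor cells from differentiating. It was named for a promoter region in both replicates, but those regions did not overlap. On chromosome 16 the replicate 1 region ran from 30064811 to 30072239 (7.43 kb) and covered the whole gene (30065357 to 30067796). The replicate 2 region ran from 30055693 to 30064372 (8.68 kb) and ended 0.985 kb below the lower-coordinate end of the gene, 0.439 kb from the replicate 1 region. A distal region of replicate 2 (30071652 to 30076953, 5.30 kb) lay beyond the gene and overlapped the far end of the replicate 1 region. Thus Hes1 was counted among the 4 genes with a promoter region in both replicates by name, while its own sequence was covered by 100% in replicate 1 and 0% in replicate 2. Within 50 kb of Hes1, regions covered 34.7% in replicate 1 and 33.9% in replicate 2, including stretches over the noncoding gene 9030404E10Rik in both. Of the 48.6 kb that either replicate covered there, 21.7 kb (44.6%) was in common.

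Hey1 encodes a repressor of the Hes-related family. No region was named for it. The only region within 50 kb was intergenic, in replicate 1 (chromosome 3, 8714556 to 8719948, 5.39 kb), and lay 47.5 kb from the gene (8663359 to 8667038). In replicate 2 the nearest region was 98.1 kb away.

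**Figure D3:**
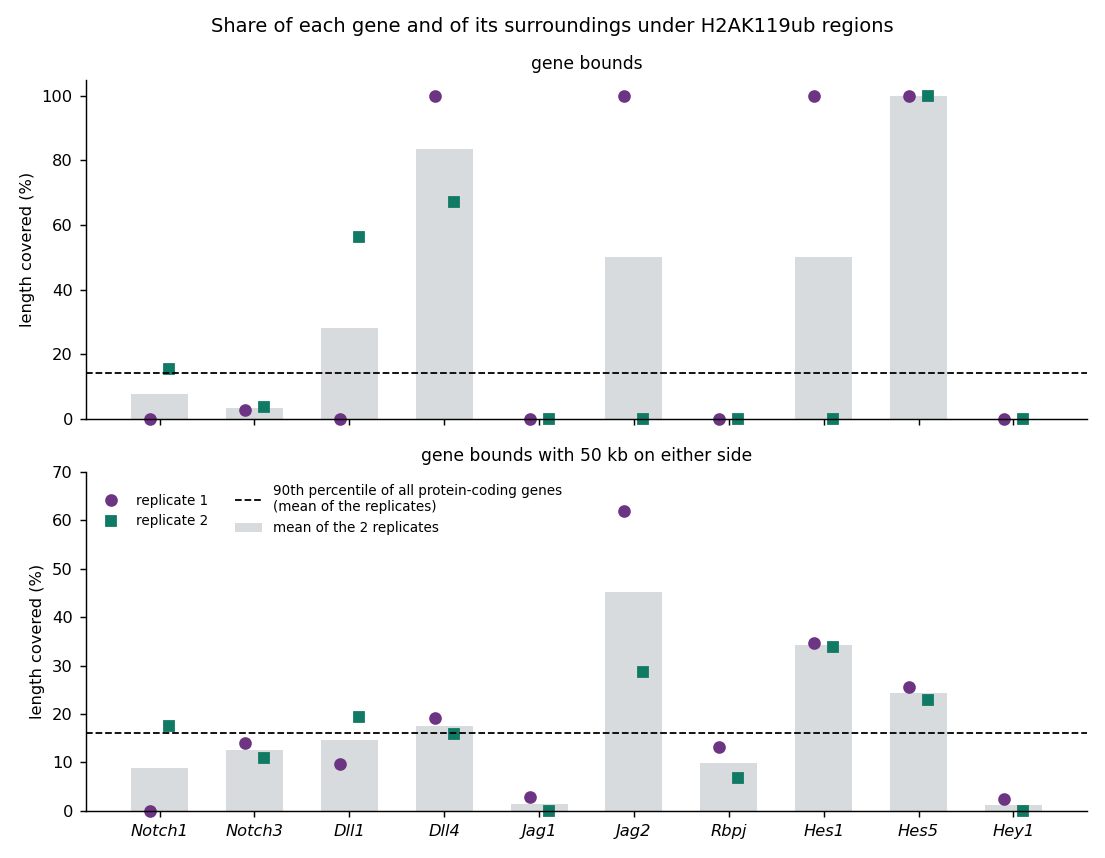
Percent of the length of each gene (top) and of the gene with 50 kb on either side (bottom) that lay under H2AK119ub regions. Circles are replicate 1, squares replicate 2, bars their mean, and the dashed line is the 90th percentile over all protein-coding genes, averaged over the replicates. Hes5 is at 100% in both replicates, Jag2 and Hes1 are at 100% in replicate 1 and 0% in replicate 2, and the windows of Jag2, Hes1 and Hes5 lie above the line in both replicates.

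The genes were ordered by mean coverage of the gene. Hes5 stood at 100% in both replicates and Dll4 at 83.6% ± 23.2 (SD, n = 2). Jag2 and Hes1 each had 50% ± 70.7 (SD, n = 2), which is 1 replicate at 100% and the other at 0%. Dll1 followed at 28.2% ± 39.9, Notch1 at 7.78% ± 11.0 and Notch3 at 3.23% ± 0.78 (SD, n = 2 each), and Jag1, Rbpj and Hey1 stood at 0% in both. Neighbours in the order from Hes5 down to Notch3 do not differ beyond their spread, since each step is smaller than the SD of a neighbour. Hes5 and Dll4 lay above Dll1, Notch1 and Notch3 in both replicates.

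With 50 kb on either side, the median coverage of the 10 genes was 13.6% in replicate 1 and 16.7% in replicate 2, while the median over all protein-coding genes was 0% in both. Of the 10 genes, 4 in replicate 1 and 6 in replicate 2 lay above the 90th percentile of all protein-coding genes (16.9% and 15.1%). Those in both replicates were Dll4, Jag2, Hes1 and Hes5. Hes1 (34.3% ± 0.54, SD, n = 2) and Hes5 (24.2% ± 1.95) varied least in relation to their level, and Jag2 (45.3% ± 23.5) had the highest mean with a wide spread.

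The 11 regions that lay over 1 of the 10 genes numbered 6 in replicate 1, with a median width of 10869 bp, and 5 in replicate 2, with a median of 13210 bp. The medians of the whole lists were 4864 bp and 4219 bp, and those of all promoter regions 8080 bp and 6843 bp. A wide region is more likely to lie over a gene, and no median is given here for regions over any protein-coding gene. Whether the 11 are wide among such regions was therefore not tested. Of these 11 regions, 9 overlapped a region of the other replicate (81.8%), and the regions over Jag2 in replicate 1 and Notch1 in replicate 2 did not. The regions over Notch3, Dll1, Dll4 and Hes5 overlapped one another between the replicates, so each such pair was counted from both sides. Of all regions within 50 kb, 15 of 20 in replicate 1 (75%) and 16 of 24 in replicate 2 (66.7%) had a partner, against 61.1% and 61.2% of the lists. In covered bases the replicates had a median of 35.7% in common over the 10 genes with their 50 kb sides, against 26.0% over the 10925 protein-coding genes with any coverage there. Pooled over the 10 genes, 118 of 291 kb (40.4%) was in common, the same share as in the whole lists, 32.5 of 80.4 Mb (40.4%). For Notch1, Jag1 and Hey1 that value was 0%. Regions near one gene share their surroundings and are not replicates.

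**Figure D4:**
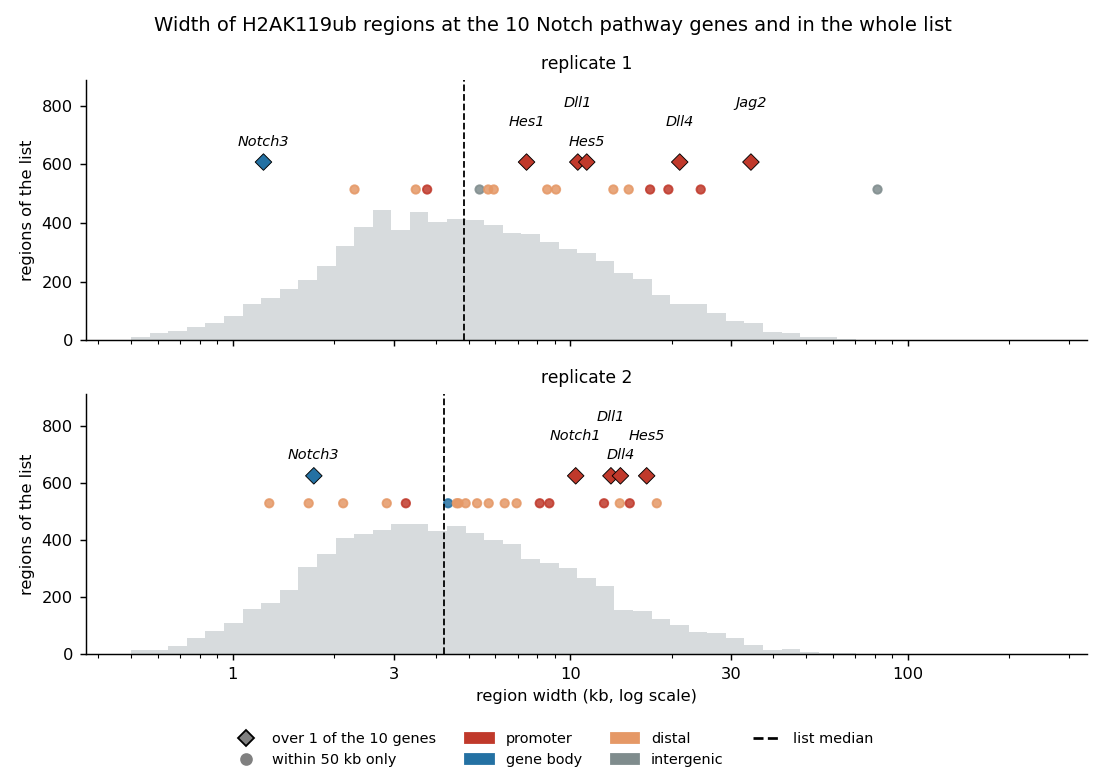
Widths of called regions in each replicate on a log axis. Grey bars count all regions of the list, the dashed line is the list median, diamonds are regions over 1 of the 10 genes and circles are regions within 50 kb only, coloured by location class and set above the bars for legibility. Apart from the gene body region of Notch3, every region over a gene is wider than the list median in both replicates.

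Another 49 genes of the pathway were set beside these 10. Of the 49, 9 had a promoter region in both replicates (18.4%), against 8.82% of all protein-coding genes. Another 10 had one in a single replicate, 11 were named in other classes only and 19 were not named. Replicate 1 alone named 15 of the 49 for a promoter region (30.6%, against 12.8%) and replicate 2 alone named 13 (26.5%, against 12.4%). In any class, 17 were named in both replicates (34.7%, against 15.3%). No share over all protein-coding genes is given for the counts of 10, 11 and 19. The 9 were spread over the roles: 3 of 7 targets and relatives (Hes2, Hes3 and Hey2), 3 of 11 nuclear cofactors (Rbpjl, Tle1 and Tle2), 1 of 4 ligand genes (Dlk1), 1 of 5 glycosyltransferases (Lfng) and 1 of 12 trafficking and ubiquitin genes (Dtx1). None of the 8 protease genes and neither of the other receptor genes, Notch2 and Notch4, had one in both.

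The widest of these regions lay at genes of small repressors and of receptor sugar modification. Hes2 lay in a region of 42.6 kb in replicate 1 and 27.8 kb in replicate 2, named with Espn and Acot7. Hes3 lay in regions of 28.7 and 28.8 kb, named with Icmt and Gpr153, whose edges stood 50 and 37 bp apart. Lfng encodes the Fringe enzyme that adds sugar to Notch receptors and so shifts their preference among ligands, and it was covered in full by regions of 30.1 and 31.6 kb. Hey2, another gene of the Hey family, had regions of 11.7 kb in replicate 1 and 10.045 kb in replicate 2 over 41.1% and 44.5% of the gene, while Hey1 had none.

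Dlk1 encodes a Delta-like protein without the domain that activates Notch, and it had regions of 28.5 kb in replicate 1 and 21.9 kb in replicate 2. Rbpjl, a paralogue of Rbpj, had regions of 11.7 and 6.83 kb over 64.99% and 53.8% of the gene, named with Matn4, whereas Rbpj itself was at 0%. The Groucho corepressor genes Tle2 (16.1 and 8.86 kb) and Tle1 (8.81 and 6.35 kb) were named in both lists. Regions of any class covered 94.2% and 76.3% of Tle2. The Tle1 regions were named with C630043F03Rik, and the covered share of Tle1 was 1.47% in replicate 1 and 0% in replicate 2. Dtx1, a Deltex ubiquitin ligase gene, had promoter regions of 23.7 and 7.39 kb, and regions of any class covered 76.8% and 82.7% of it.

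Of the 10 genes with a promoter region in a single replicate, 6 were named in replicate 1 (Dll3, Tle3, Tle4, Aph1a, Fbxw7 and Neurl1b) and 4 in replicate 2 (Hes6, Heyl, Dtx3 and Dtx4). Some of these had a region at much the same place in both lists under different classes. Tle3 had a region of 23.5 kb in replicate 1 (chromosome 9, 61347984 to 61371495) classed as promoter and of 22.8 kb in replicate 2 (61347446 to 61370220) classed as distal, the second ending 2.11 kb from the gene. Replicate 1 also had a gene body region named for Tle3. The covered share of this gene was 61.4% in replicate 1 and 0% in replicate 2, so coverage of the gene differed too. Others were present in 1 list alone: Dll3 was covered in full by a region of 18.0 kb in replicate 1, and Heyl over 61.4% by a region of 17.5 kb in replicate 2, and neither gene was named in the other list. The subunits of gamma-secretase, the protease that releases the intracellular part of Notch, had regions of 1.00 to 4.44 kb at most. The medians of the whole lists were 4864 bp in replicate 1 and 4219 bp in replicate 2. The widest of these regions, that of Aph1a in replicate 1, was at the 46.1th percentile of width. No subunit was named for a promoter region in both.

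**Figure D5:**
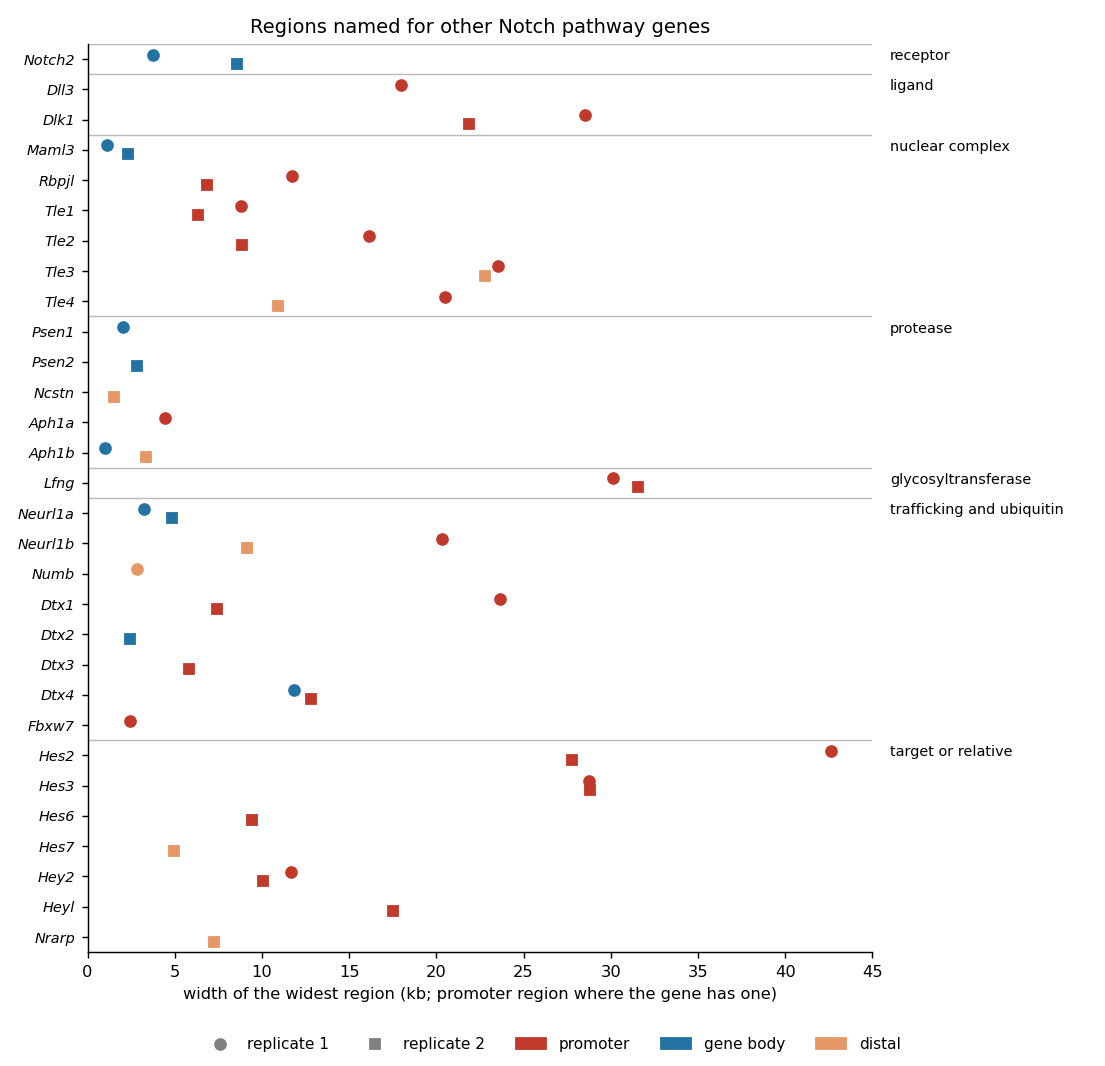
Width in kb of the widest region named for each of the other pathway genes, with the promoter region taken where a gene has one. Circles are replicate 1, squares replicate 2, and colour gives the authors' location class; the 19 genes named by no region are not drawn. Hes2, Hes3, Lfng and Dlk1 have promoter regions above 20 kb in both replicates, while every region of the gamma-secretase genes is narrower than 5 kb.

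The lists hold no read counts, heights or scores, so the depth is unknown, a region cannot be graded by strength, and a gene without a region was not called rather than shown to lack the mark. The mark does not measure transcription, and the labelled cell type was therefore not checked by expression. Of 7 genes that mark basal epithelium, 1 (Krt15) had a promoter region in both replicates, against 4 of 9 genes that mark other cell types (Pdgfra, Myod1, Sox10 and Tubb3) and 8.82% of all protein-coding genes. In addition, Krt5 had a promoter region in replicate 2 alone, and Itgb4 had a region over the gene in both replicates. Among the markers of other cell types, Col1a1 had a promoter region in replicate 1 alone. A region lay over Cd3e in replicate 1 alone and over Cdh5 in replicate 2 alone.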

How the data were processed

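Both H2AK119ub lists were used as deposited. Per the file headers, each row holds a chromosome, a start, an end, 1 of 4 location classes and gene names, and the authors deposited 1 list per replicate. The build is mm10, and Bowtie2 2.3.3 and SAMtools 0.1.19 are named, with no role, per the submitters' processing notes. Which program called the regions, with what settings and whether against the input, is not given in the sources used here, nor is the rule for the location classes. No gap between regions was under 999 bp, so closer stretches may stand as 1 region.

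Gene bounds and start sites came from RefSeq tables of GRCm38.p6. Names were matched by symbol, then by a synonym of 1 gene only. Overlap was counted from 1 bp, and width is end minus start. Interval arithmetic was tested on simulated regions. With 1 group and no values per region there was no test, and member counts stand beside those over all protein-coding genes of the autosomes and X. The alternatives were other overlap rules, flanks and region classes, a width limit and leaving out each replicate. Members, lists and naming rules were chosen with earlier results of these data known. All 10 members were named, as were those of 49 other pathway genes with a promoter region in either replicate, and 1 further gene first listed with these 49 is not reported here. Jag2 and Tle3 were picked for added detail after their values were seen. No interval is given for counts or shares. Python 3.11.15, pandas 2.3.3, scipy 1.17.1 and matplotlib 3.10.9 were used.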

Additional observations from a re-analysis of the deposited data

How the results depend on the processing

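Alternatives gave 81 values for 18 results, of which 10 moved beyond the limits set. The results are counts, shares and widths without a direction, so none could reverse. Counting genes in either replicate in place of both gave 7 of the 10 genes with a promoter region, 7 with a region over the gene and 5 with a start site in a region, and 19 of the 49 other pathway genes with a promoter region. The looser rule takes in more of all protein-coding genes too: 12.8% had a promoter region in replicate 1 alone taken and 12.4% in replicate 2, against 8.82% in both. Shares of all protein-coding genes in either replicate are not given here, so these rises cannot be read as particular to the Notch genes. Leaving out a replicate gave 5 to 6, 5 to 6, 8 to 9 and 4 genes for promoter region, region over the gene, region within 50 kb and start site, and 13 (without replicate 1) to 15 (without replicate 2) of the other pathway genes. Names in any location class raised that count of other pathway genes to 17, and a region within 5 kb of either gene end raised it to 14, against 9. Over all protein-coding genes, names in any class in both replicates likewise raised the share to 15.3%, against 8.82%. The share of all protein-coding genes under the 5 kb rule is not given here. A minimum overlap of 50% of the gene gave 2 genes in place of 4 with a region over the gene. The share of all protein-coding genes under that limit is not given here. With 2 kb added on either side, the median covered share of the gene was 9.31%, against 1.63%. Leaving out 1 of 2 replicates always keeps a mean within its SD, so coverage and width could not move there. No paired analysis was possible because there was 1 group. The share of regions with a partner needs both replicates. Depth is unknown, so how far it limits calls such as those of Jag2 and Notch1 in 1 list was not tested.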
